A study of Homo sapiens with 4 samples.

Results

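The proteasome genes, those whose symbol begins with PSMA to PSMG and a number, were described in HT1080 cells, a human fibrosarcoma line, at 21% and at 1% oxygen. Among the 18417 genes that a probe set names alone, 47 matched this rule. Of these, 45 encode a proteasome subunit, activator, inhibitor or assembly factor, and PSMC3IP and PSME3IP1 share the prefix only and are given apart. The 45 comprised 19 genes of the 20S core (PSMA and PSMB), 17 of the 19S cap (PSMC and PSMD), 4 activators (PSME), the inhibitor gene PSMF1 and 4 assembly factors (PSMG). PSMC5, PSMD7 and PSMD13 were not analysed here. Where several probe sets name a gene, the brightest on average was used.

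The study kept HT1080 cells in 0.4% serum from at least 24 h before the experiment and then for 36 h at either 21% oxygen, called control, or 1% oxygen, called hypoxia. Expression was read from total RNA and transcripts at the ER from ER-RNA, extracted from an isolated ER fraction. According to the methods, cells used for subcellular fractions, ER isolation among them, were first treated with cycloheximide. The methods do not say if this also held for total RNA, so the fractions may differ in handling. The 4 groups, each fraction at each oxygen level, were 1 array each, loaded with a pool of RNA from 5 experiments on this single cell line. No spread between experiments can therefore be measured, no p-value is given, and precision is limited by how few arrays there are. The values are log2 RMA values of bulk RNA, relative to the rest of the RNA on the array, so that fewer cells expressing a gene and less RNA per cell cannot be told apart.

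The proteasome degrades proteins that carry ubiquitin. Its 20S core is a barrel of α rings, which gate the entry, and β rings, which hold the proteolytic sites. The 19S cap binds ubiquitin chains, removes them and unfolds the substrate with a ring of ATPases, and HIF-1α, the oxygen-regulated transcription factor subunit, is among the proteins degraded this way while oxygen is present. All subunit genes are transcribed separately, and the transcription factors NRF1 (NFE2L1) and NRF2 (NFE2L2) are known to act on many of them.

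On these arrays the hypoxia-induced prolyl hydroxylase gene EGLN3 was at 7.57 and 9.15 in total RNA and at 6.93 and 8.45 in ER-RNA (control and hypoxia), so it was higher in hypoxia in both fractions. All 7 mesenchymal markers checked lay above the array median on each array. Of 4 epithelial markers 1 did so, and of 4 leukocyte and 4 endothelial markers 0 or 1. The medians of the arrays were 7.41 and 7.49 in total RNA and 6.25 and 6.34 in ER-RNA, so hypoxia was compared with control within each fraction.

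Nearly every proteasome gene had a lower value in hypoxia. In total RNA 42 of the 45 genes lay below their control value, with a median log2 difference of -0.61, or 0.657 of control, and in ER-RNA 44 of 45 did, with a median of -0.80, or 0.576 of control. Over all 18417 genes total RNA had a median of 0.026, with 46.8% lower, and ER-RNA one of 0.057, with 43.3% lower. Of the genes that passed the filter on low values (at least 1 array of the pair in its upper 50%) 55.7% and 52.5% were lower. The middle 50% of the proteasome genes lay between -0.93 and -0.31 in total RNA and between -1.21 and -0.51 in ER-RNA. Genes with a strong signal tended downwards in general. Among 4452 other genes whose mean signal in total RNA lay within the quartiles of the proteasome genes, the median was -0.16 and 65.0% were lower, and among 2327 such genes in ER-RNA it was -0.23, with 67.3% lower.

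A gene was called lower, following the thresholds in the methods, when it was brighter than the 50% quantile of the array on either side of the comparison, the change exceeded 1.4-fold and the z-score was beyond 3. The z-score is the log2 difference over an SD read from a curve of SD against signal. That SD is taken over the values of a pair and is on average smaller than the SD of the differences. A z-score of 3 is therefore a milder limit than 3 SDs of the differences. In total RNA 16 of the 45 were called lower and 0 higher, and in ER-RNA 18 and 0. The same rule called 4.66% of all genes lower in total RNA and 5.32% in ER-RNA, or 7.45% and 8.25% of the genes that passed the filter. In total RNA 1.45% of all genes (2.32% of those that passed) were called higher, and in ER-RNA 0.722% (1.12%). The filter passed 43 of the 45, all but PSMA8 and PSMB11, and PSMB8 passed in total RNA through its control array alone. A total of 13 genes were called in both fractions, which is 81.2% of the calls in total RNA and 72.2% of those in ER-RNA. The matching overlap over all genes was not taken, so these shares are not read as particular to proteasome genes. PSMC3, PSME1 and PSMG3 were called in total RNA alone, and PSMA4, PSMC6, PSMD5, PSMD6 and PSMD12 in ER-RNA alone. Without a replicate these counts depend on the assumed SD. With an SD from the scaled MAD, the calls numbered 3 in total RNA, against 1.81% of all genes that passed, and 2 in ER-RNA, against 2.01%. By fold change alone 27 were lower in total RNA (18.6% of the genes that passed) and 35 in ER-RNA (21.4%), and 0 were higher in either (6.2% and 6.53%). With the fold threshold raised to 2, 9 genes were called lower in total RNA, against 3.3% of the genes that passed, and 17 in ER-RNA, against 5.57%.

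**Figure D1:**
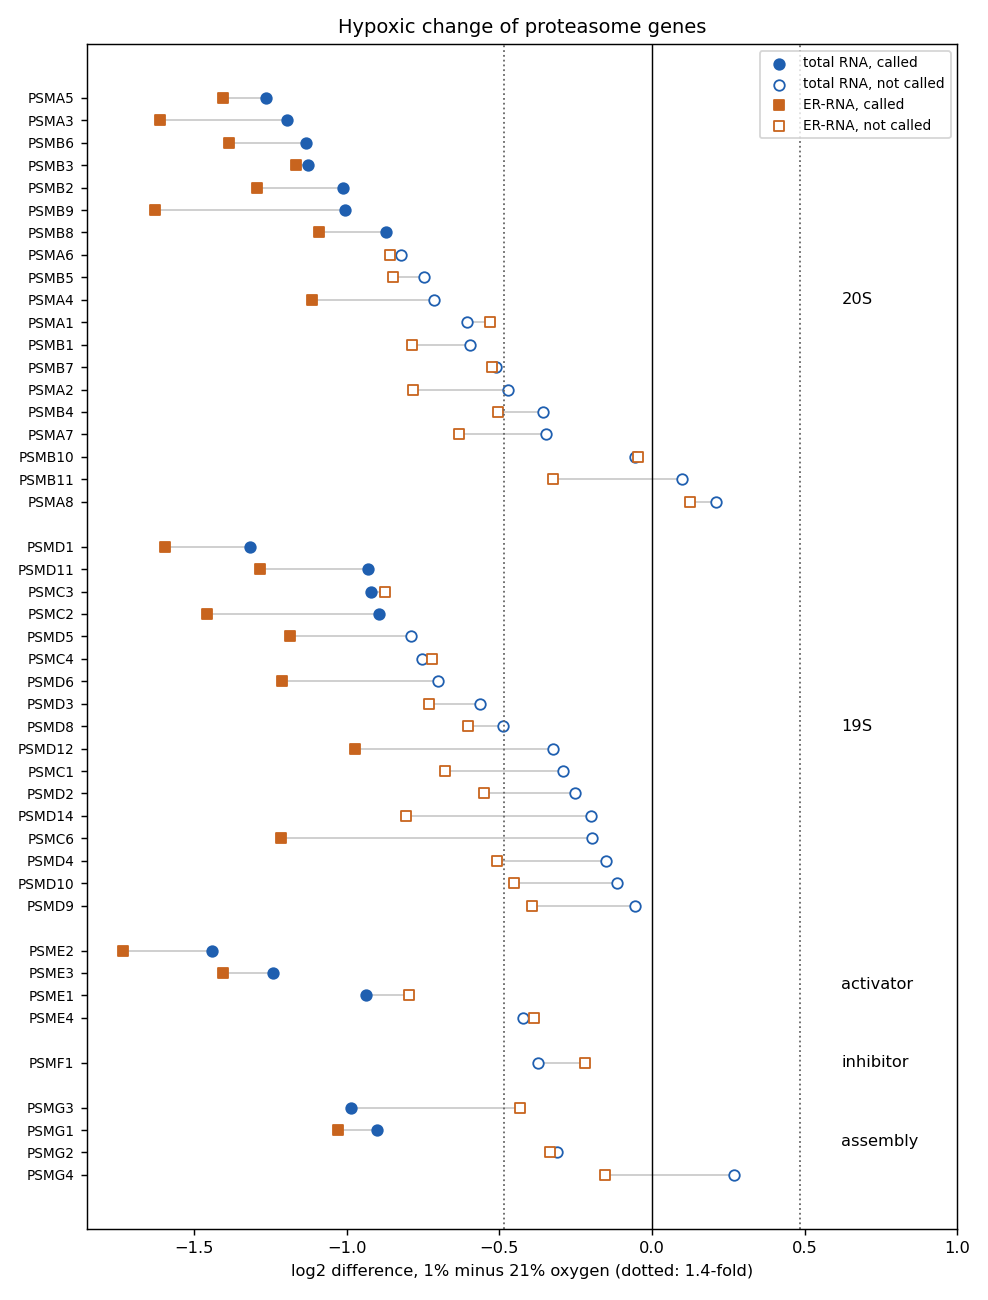
Log2 difference, 1% minus 21% oxygen, of the 45 proteasome genes, as circles for total RNA and squares for ER-RNA, grouped by class and ordered by the value in total RNA. Filled symbols were called lower and dotted lines mark 1.4-fold. Only PSMA8, PSMB11 and PSMG4 lie above 0 in total RNA and only PSMA8 in ER-RNA, and none of these is called.

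In the α ring of the 20S core, PSMA5 and PSMA3 fell most in both fractions. PSMA5 was at 8.92 under control conditions and 7.66 in hypoxia in total RNA, and at 9.27 and 7.87 in ER-RNA, a fall to 0.416 and 0.378 of control. PSMA3 was at 9.96 and 8.76 in total RNA, and at 10.58 and 8.97 in ER-RNA, a fall to 0.436 and 0.327. In each fraction the hypoxic value of both genes is more than 1 log2 unit below control. PSMA4 fell in ER-RNA, from 11.29 to 10.17, while in total RNA it was at 10.45 and 9.74 with a z-score of -2.53. PSMA6 stood just short of a call in both fractions, with log2 differences of -0.82 (z-score -2.99) and -0.86 (z-score -2.83). The other α genes that passed the filter, PSMA1, PSMA2 and PSMA7, lay between -0.61 and -0.35 in total RNA and between -0.78 and -0.53 in ER-RNA. PSMA8, the testis form that takes the place of PSMA7 in germ cells, was at 4.55 and 4.76 in total RNA and 3.23 and 3.35 in ER-RNA, below the median of each array.

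Of the 7 constitutive β genes, PSMB2, PSMB3 and PSMB6 fell in both fractions. PSMB6, which carries the caspase-like activity, was at 11.33 and 10.19 in total RNA and at 11.84 and 10.46 in ER-RNA, a fall to 0.456 and 0.383 of control. PSMB3, which has no active site of its own, was at 10.21 and 9.08, and at 11.20 and 10.03, a fall to 0.458 and 0.446. PSMB2 went from 11.59 to 10.58 and from 11.45 to 10.16, with log2 differences of -1.01 and -1.29. Both other catalytic genes were lower without being called. PSMB5, the chymotrypsin-like subunit and main target of proteasome inhibitors, was at 10.44 and 9.70 in total RNA and at 10.62 and 9.77 in ER-RNA (log2 differences -0.75 and -0.85). PSMB7, the trypsin-like subunit, was at 10.64 and 10.13, and at 11.16 and 10.63 (-0.51 and -0.52). The 3 catalytic subunits are needed in equal number in each barrel. Their log2 differences in total RNA ranged from -1.13 to -0.51, a spread that was not tested. The arrays do not measure the amount of subunit protein. PSMB1 and PSMB4 lay at -0.60 and -0.36 in total RNA and at -0.79 and -0.50 in ER-RNA.

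In the immunoproteasome, interferon-inducible β subunits replace the catalytic ones, and here these genes did not move alike. PSMB9, the replacement for PSMB6, fell in total RNA from 9.19 to 8.18 and in ER-RNA from 9.03 to 7.41, to 0.498 and 0.324 of control. PSMB8, the replacement for PSMB5, fell from 7.93 to 7.06 and from 7.66 to 6.57, to 0.546 and 0.470. PSMB10, the replacement for PSMB7, was at 8.00 and 7.94 in total RNA and at 6.83 and 6.79 in ER-RNA, so its differences of -0.05 and -0.04 were the smallest among the genes that passed the filter in ER-RNA. PSMB8 and PSMB9 lie in the MHC region interleaved with the peptide transporter genes TAP2 and TAP1, in the gene order TAP2, PSMB8, TAP1, PSMB9. TAP2 was at 9.63 and 8.42 in total RNA and was called lower, and TAP1 was at 10.09 and 9.38 and was not. In ER-RNA neither was called, with log2 differences of -0.55 for TAP2 and -0.39 for TAP1. IRF1, a transcription factor of the interferon response, fell in total RNA from 9.04 to 7.91 and was at 7.46 and 6.92 in ER-RNA. In the list of 8 antigen processing genes, 2 were called lower in total RNA (TAP2 and IRF1) and 0 in ER-RNA, where 2 were past 1.4-fold, and the median log2 differences were -0.41 and -0.30. Over all genes that passed the filter, 7.45% and 8.25% were called lower. B2M, the invariant chain of MHC class I, was nearly level in total RNA, at 11.07 and 11.12. PSMB11, the thymus-specific β subunit, was at 6.41 and 6.51 in total RNA and at 5.43 and 5.11 in ER-RNA, below the median of each array.

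**Figure D2:**
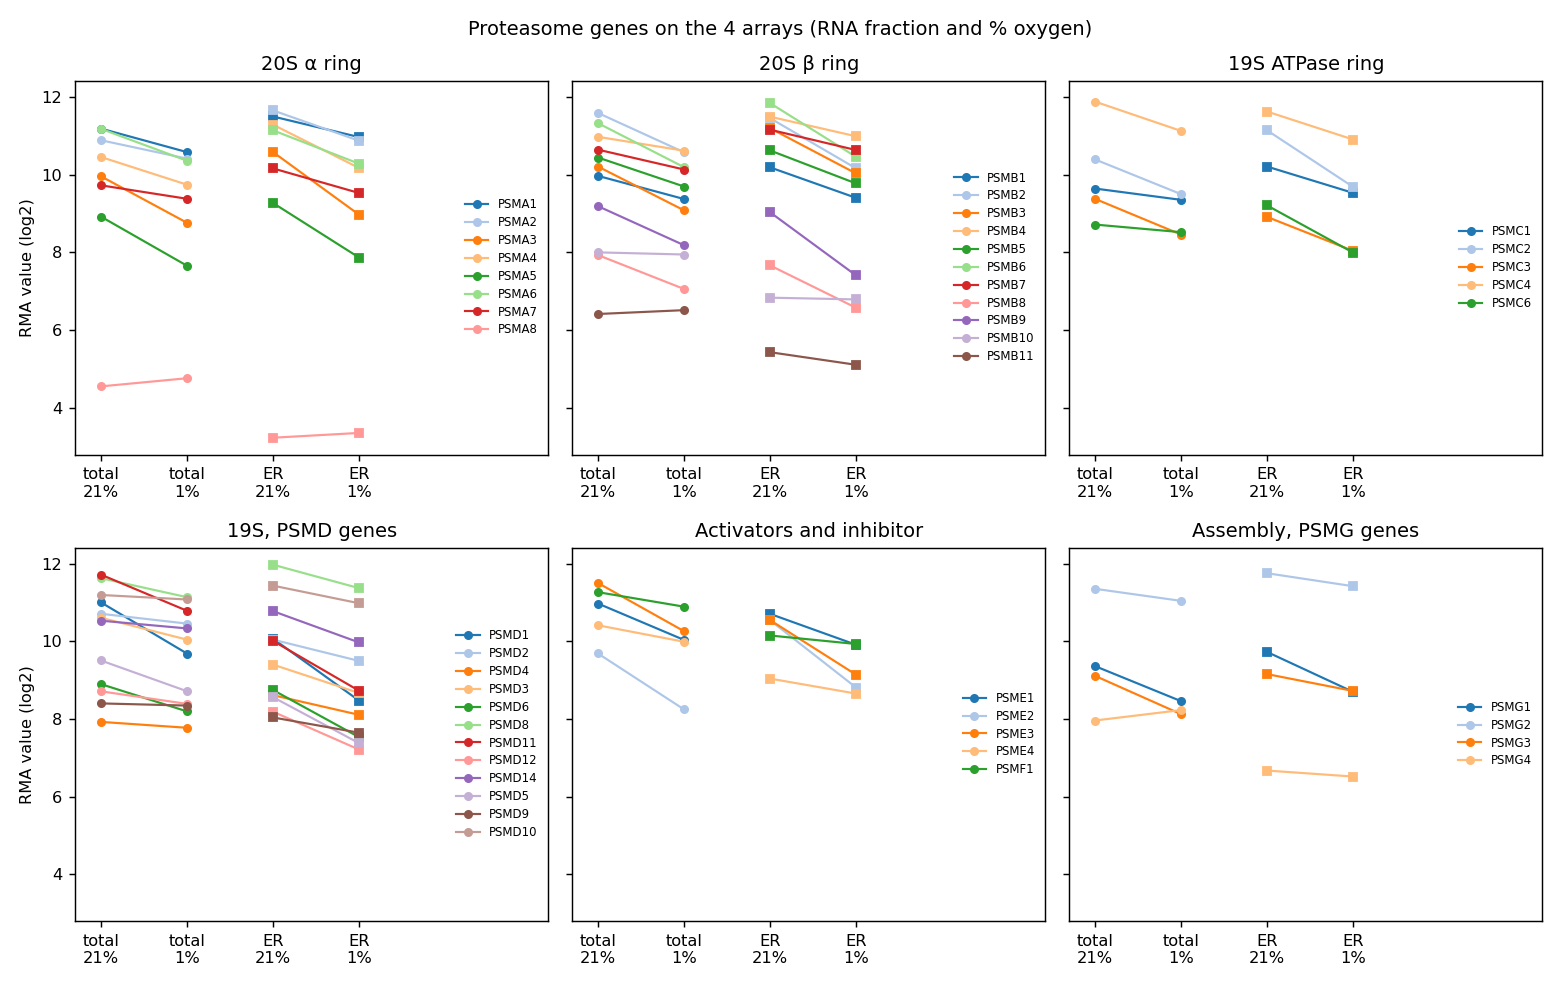
Log2 RMA value of each proteasome gene on the 4 arrays, total RNA (circles) and ER-RNA (squares) at 21% and 1% oxygen, in panels by class. Lines join the 2 arrays of a fraction and nearly all slope down, for example PSME2 from 9.69 to 8.25 in total RNA, while PSMB10 is close to level, from 8.00 to 7.94. Heights of different genes are not comparable, since probe sets differ in response.

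In the ATPase ring of the 19S cap, 5 genes were measured and 2 were called lower in each fraction, PSMC2 in both. PSMC2 was at 10.39 and 9.50 in total RNA and at 11.14 and 9.68 in ER-RNA, a fall to 0.538 and 0.364 of control. PSMC3 fell in total RNA, from 9.38 to 8.46 (z-score -3.45), and was at 8.91 and 8.04 in ER-RNA (z-score -2.83), so nearly the same log2 difference lay on either side of the threshold. PSMC4 missed the call in total RNA by a small margin, at 11.88 and 11.13 with a z-score of -2.99. By the brighter of its probe sets, PSMC6 was at 8.72 and 8.52 in total RNA, 0.873 of control, and at 9.21 and 7.99 in ER-RNA, 0.431 of control. A second probe set that names PSMC6 had a log2 difference of -0.57 in total RNA and one of -1.09 in ER-RNA, where it was called too. The gap between the fractions was thus -1.02 by the first and -0.52 by the second, and which of them lies at the gene itself was not settled. PSMC1 was at 9.64 and 9.35 in total RNA and at 10.21 and 9.53 in ER-RNA, and its second probe set, for which the same doubt holds, gave -0.25 and -0.68 against -0.29 and -0.68.

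Beside the ATPases the base of the cap holds the scaffolds PSMD1 and PSMD2 and the ubiquitin receptor PSMD4. PSMD1 was at 11.00 and 9.69 in total RNA and at 10.07 and 8.47 in ER-RNA, a fall to 0.401 and 0.331 of control, the lowest ratios in the 19S class in both fractions. PSMD2, its partner scaffold, was at 10.71 and 10.46, and at 10.04 and 9.50, and was not called in either. PSMD4 was at 7.93 and 7.78, and at 8.62 and 8.11. The paralogous scaffolds thus had log2 differences of -1.32 and -0.25 in total RNA, a gap that was not tested.

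The lid surrounds the deubiquitinase PSMD14 with scaffold subunits of related fold. PSMD11, which ties the lid to the core and is known to limit cap assembly in some cells, fell in total RNA from 11.72 to 10.79 and in ER-RNA from 10.01 to 8.73, to 0.525 and 0.411 of control. PSMD6 fell in ER-RNA, from 8.75 to 7.53 (total RNA 8.90 and 8.20, z-score -2.80). PSMD12 fell in ER-RNA, from 8.19 to 7.21, and was at 8.71 and 8.39 in total RNA, a difference of -0.32 that is under 1.4-fold. PSMD14 itself was at 10.53 and 10.33 in total RNA and at 10.78 and 9.97 in ER-RNA, with log2 differences of -0.20 and -0.81 and no call. PSMD3 and PSMD8 lay at -0.56 and -0.49 in total RNA and at -0.73 and -0.60 in ER-RNA.

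PSMD5, PSMD9 and PSMD10 carry subunit names but encode chaperones that assemble the base of the cap and leave it afterwards. PSMD5 fell in ER-RNA, from 8.56 to 7.38, and was at 9.51 and 8.72 in total RNA (z-score -2.92). PSMD9 was at 8.40 and 8.35 in total RNA and at 8.04 and 7.65 in ER-RNA. PSMD10, also known as gankyrin, was at 11.19 and 11.08, and at 11.43 and 10.98. In total RNA the median of these 3 was -0.12, against -0.53 for the other 14 genes of the 19S class.

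By class the activators had the lowest medians. In total RNA the median log2 difference was -1.09 for the activators, -0.71 for the 20S core, -0.61 for the assembly factors and -0.49 for the 19S cap. In ER-RNA the values were -1.10, -0.85, -0.38 and -0.81 in the same order. Called lower in total RNA were 3 of 4 activators, 7 of 19 core genes, 2 of 4 assembly factors and 4 of 17 cap genes. In ER-RNA these counts were 2, 8, 1 and 7. Of the 19 core genes 17 passed the filter, so the others could not be called. Over all genes 4.66% were called lower in total RNA and 5.32% in ER-RNA, or 7.45% and 8.25% of those that passed. The classes overlap widely, hold few genes and share 1 array per condition, and the differences between them were not tested.

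PSME1 and PSME2, which together form the interferon-inducible 11S activator, were both lower. PSME2 had the largest fall of all 45 genes in each fraction, in total RNA from 9.69 to 8.25 and in ER-RNA from 10.54 to 8.81, to 0.369 and 0.301 of control. Only 0.425% of the genes that passed the filter had a lower log2 difference in total RNA and 0.362% in ER-RNA. PSME1 fell in total RNA from 10.97 to 10.04, to 0.522 of control, and was at 10.71 and 9.91 in ER-RNA (z-score -2.53). PSME3, the nuclear 11S activator, fell from 11.50 to 10.26 and from 10.55 to 9.14, to 0.423 and 0.377. PSME4, the large nuclear activator that also binds acetylated histones, was at 10.41 and 9.99, and at 9.04 and 8.66, and was not called. PSMF1, which encodes the inhibitor PI31, was at 11.27 and 10.89 in total RNA and at 10.15 and 9.93 in ER-RNA. Its log2 differences of -0.37 and -0.22 are under 1.4-fold, and the latter was -0.058 after quantile normalization of the pair and -0.11 after loess of the pair.

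The 4 PSMG assembly factors work as the pairs PSMG1 with PSMG2 and PSMG3 with PSMG4, which place the α subunits into a ring. In total RNA each pair held 1 gene that was called and 1 that was not, while in ER-RNA PSMG1 alone was called. PSMG1 fell in total RNA from 9.36 to 8.46 and in ER-RNA from 9.73 to 8.70, to 0.535 and 0.490 of control. PSMG2 was at 11.35 and 11.04, and at 11.75 and 11.42. PSMG3 fell in total RNA, from 9.11 to 8.13, to 0.505 of control, and was at 9.16 and 8.72 in ER-RNA (z-score -1.35). PSMG4 was at 7.96 and 8.23 in total RNA, higher in hypoxia by 0.27 on the log2 scale without a call, and at 6.67 and 6.52 in ER-RNA.

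The changes of both fractions ran in parallel across the proteasome genes, with r of 0.80 (Pearson) and rho of 0.764 (Spearman) across the 43 that passed both filters. Genes are not independent replicates and total RNA includes the RNA at the ER, so these values describe the arrays only. No correlation over all genes was taken beside them, so they are not read as particular to this set. In 35 of the 43 the log2 difference was lower in ER-RNA than in total RNA, against 51.5% of 10851 genes, and the median gap was -0.25 against -0.0081. PSMC6 had a gap of -1.02, but of -0.52 by its second probe set, which is narrower than that of PSMD12 (-0.65). In the other direction PSMG3 had a gap of 0.55. These gaps depend on the scale. After quantile normalization within each pair 33 of 43 were lower in ER-RNA, but after quantile normalization of all 4 arrays together 21 were, with a median gap of 0.0011.

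The fractions do not share a scale, so ER-RNA over total RNA was read only relative to the median of all genes, which was -1.11 on the log2 scale at 21% oxygen and -1.09 at 1%. Proteasome subunits are cytosolic and nuclear proteins. At 21% oxygen 37 of the 43 genes lay above that median, with a median of 1.30, and at 1% oxygen 34 did, with a median of 0.99. Of the 10851 genes that passed both filters 55.2% and 53.2% lay above it. The core lay at 1.46 and 1.30, the cap at 0.86 and 0.56. After quantile normalization of all 4 arrays the core was at 0.94 at both oxygen levels, and the cap at 0.60 and 0.35. Among the core genes PSMB3 was highest, at 2.10 and 2.04, and PSMB10 lowest, at -0.05 and -0.07. In the cap PSMC2 was highest at 21% oxygen (1.86) and the lid gene PSMD11 lowest at both levels (-0.59 and -0.97). Other complexes, described below, also lay above the median of all genes at 21% and 1% oxygen. Their medians were 1.22 and 0.84 for the COP9 signalosome, 1.18 and 1.28 for eIF3, and 0.94 and 0.97 for the TRiC chaperonin. A high ER-RNA over total RNA was thus not particular to proteasome genes. In the antigen processing list 6 of the 7 genes that passed both filters stood on the other side at 21% oxygen, among them TAPBP (-1.67), TAP2 (-1.57) and TAP1 (-1.18), which encode membrane proteins of the ER, and the regulators IRF1 (-0.47) and NLRC5 (-0.40), while B2M was at 1.33. Translation was not measured.

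**Figure D3:**
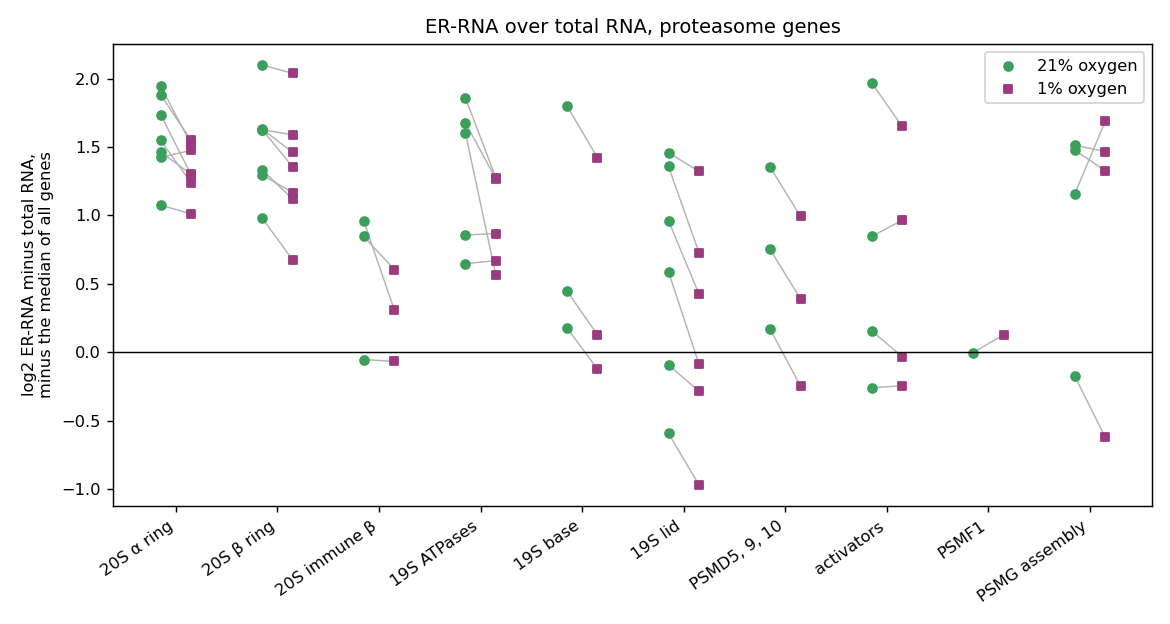
Log2 ER-RNA minus total RNA of the 43 proteasome genes that passed both filters, after subtracting the median of all genes, at 21% oxygen (circles) and 1% oxygen (squares), by subclass, with lines joining each gene. All genes of the α ring and constitutive β ring lie above 0, from 0.67 to 2.10, whereas the lid spans -0.97 to 1.46.

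Among genes that work with the proteasome, 28 of a list of 33 were measured, and 3 were called lower and 2 higher in total RNA and 2 lower and 0 higher in ER-RNA. The lower calls were 10.7% and 7.14% of the list, near the 7.45% and 8.25% of all genes that passed the filter. Of all genes that passed, 2.32% and 1.12% were called higher. The median log2 differences of the list were -0.38 and -0.44. UBLCP1, a phosphatase that acts on the 19S cap in the nucleus, was lowest, in total RNA falling from 10.22 to 8.59 and in ER-RNA from 9.97 to 8.46, to 0.324 and 0.351 of control. UCHL5, a deubiquitinase bound to the cap, fell from 8.51 to 7.74 and from 8.42 to 7.25. The polyubiquitin gene UBB fell in total RNA, from 13.22 to 12.55, and was at 13.43 and 13.05 in ER-RNA, under 1.4-fold. The core maturation factor POMP was at 0.689 and 0.729 of control and the deubiquitinase USP14 at 0.596 and 0.524, neither called.

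Called higher in total RNA were NGLY1 and UBA6. NGLY1, which removes sugars from NRF1 on its way to activation, rose from 8.75 to 9.98 in total RNA and was at 8.84 and 9.50 in ER-RNA, 1.58-fold with a z-score of 2.05. UBA6, an alternative ubiquitin-activating enzyme, rose from 9.78 to 10.85 and was at 8.93 and 9.51. The main activating enzyme UBA1 was at 11.84 and 11.63. NFE2L1 was at 11.29 and 11.38 in total RNA and at 8.44 and 8.62 in ER-RNA, and NFE2L2 at 10.50 and 9.90, and at 10.32 and 9.66, so the transcript of the former was nearly level and that of the latter lower, and neither was called. NRF1 and NRF2 are controlled largely after transcription, which these arrays do not measure.

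Complexes related to the cap by descent or by role were set beside the proteasome genes. The COP9 signalosome, which shares its architecture with the lid, had a median over 10 genes of -0.66 in total RNA and one of -0.63 in ER-RNA, with 1 called lower in each fraction, COPS4 and COPS6. In eIF3, a translation factor of the same descent, the medians over 12 genes were -0.25 and -0.13 and 0 were called, with 2 past 1.4-fold downwards in each fraction. The TRiC chaperonin, another barrel-shaped machine of protein homeostasis, had medians of -0.76 and -0.89 over 8 genes, with 4 of them called lower by total RNA and 3 by ER-RNA. Of all genes that passed the filter, 7.45% and 8.25% were called lower, and 18.6% and 21.4% were past 1.4-fold downwards. The calls in the COP9 signalosome (10% in each fraction) are near the former. Its calls and the eIF3 counts are thus not read as particular to these complexes. A low median in hypoxia was not particular to proteasome genes, and the differences between these complexes were not tested.

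**Figure D4:**
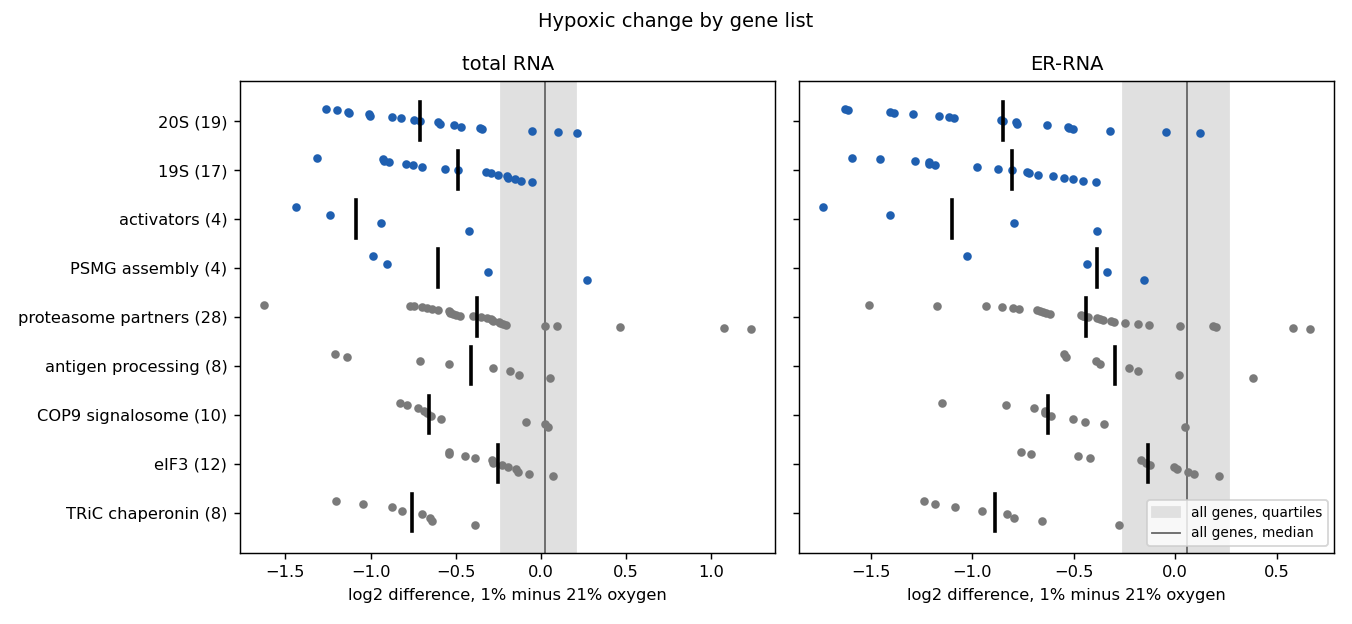
Log2 difference, 1% minus 21% oxygen, of single genes (points) by list with the list's median (black bars) in total RNA (left) and ER-RNA (right), with the number of genes in brackets. Grey bands are the quartiles of all genes. In total RNA the medians range from -1.09 for the activators to -0.25 for eIF3, and in ER-RNA from -1.10 to -0.13.

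RefSeq promoter sequences of 39 of the 45 genes were searched for short motifs on both strands, from 250 bases before to 50 after the start of the gene. The promoters of PSMA7, PSMB1, PSMB6, PSMB7, PSMD4 and PSMG3 were not analysed here. The core of the antioxidant response element bound by NRF1 and NRF2, TGACNNNGC, was found in 13 of 39 (33.3%), against 13.6% of 27305 promoters. The 27305 are all genes with such a sequence, whether or not they were analysed or passed the filter here, so the comparison is not like for like. The motif was in 8 of the 19 that were called lower in at least 1 fraction and in 5 of the other 20. The CCAAT box was in 17 of 39 (43.6%, against 35.7% of all). Of the sequences at the heart of the hypoxia response element, ACGTG was in 9 (23.1%, against 21.6%) and GCGTG in 15 (38.5%, against 36.3%). These matches describe sequence and say nothing of whether a factor was bound. The 7 called genes with TGACNNNGC upstream of the start follow on the strand of the gene in GRCh38.p14, with the motif in capitals and 10 bases on each side, to show how the variable bases differ.
PSMB3 (chr17:38752627-38752655, plus strand, 104 bases upstream): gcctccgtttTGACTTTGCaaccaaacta
PSMB9 (chr6:32854034-32854062, plus strand, 148 bases upstream, motif on the other strand): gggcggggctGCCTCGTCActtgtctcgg
PSMD5 (chr9:120843038-120843066, minus strand, 134 bases upstream): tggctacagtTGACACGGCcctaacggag
PSMD12 (chr17:67366724-67366752, minus strand, 165 bases upstream): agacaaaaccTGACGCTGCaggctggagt
PSME1 (chr14:24136098-24136126, plus strand, 86 bases upstream): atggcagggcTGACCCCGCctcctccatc
PSME2 (chr14:24146767-24146795, minus strand, 175 bases upstream): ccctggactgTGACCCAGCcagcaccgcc
PSMG1 (chr21:39183616-39183644, minus strand, 183 bases upstream): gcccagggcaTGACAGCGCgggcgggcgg
Both genes of the interferon-inducible 11S activator, PSME1 and PSME2, are in this set, as are PSMB3 and PSMB9 of the core. In PSMD1 it lies after the start. The uncalled genes with the motif in this window were PSMC4, where it also lies after the start, and PSMD3, PSMD9, PSME4 and PSMG2.

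PSMC3IP, a meiotic recombination factor, and PSME3IP1, a partner of PSME3, match the symbol rule without being parts of the proteasome. PSMC3IP was at 7.50 and 7.49 in total RNA and at 6.67 and 6.57 in ER-RNA. PSME3IP1 was at 9.69 and 9.08, and at 8.67 and 7.80, lower in hypoxia without a call. PSMB8 and PSMB9 are each named by 3 probe sets that hold the same values.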

How the data were processed

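RNA from HT1080 cells was hybridised to Affymetrix Human Gene 1.0 ST arrays, 1 per fraction and oxygen level, each with RNA pooled from 5 experiments. The deposited table holds log2 values that the authors normalized by RMA, with Partek 6.4 according to the submitters' processing notes. No source used here says if all arrays were normalized together. Of 33297 probe sets, 19460 name 1 gene in the platform annotation, and 19429 of these were matched by identifier to RefSeq for current symbols, which gave 18417 genes. The SD for z-scores came from a loess fit (span 0.75, degree 2) of the SD over a pair against its mean, over the probe sets that passed the 50% quantile filter, in R 4.3.3 with limma 3.58.1, a form that may depart from the fit used in the study. Groups came from the sample labels. The calling script was tested on simulated data. The rule for genes named with all 4 values took those called, the extremes of each class, the catalytic subunits with their immune forms and PSMF1. PSMB11, PSMC1, PSMD2, PSMD4, PSMD10, PSMD14, PSMG2, NFE2L1 and NFE2L2 fall outside it and were added for their roles after their values were seen. Members, lists and rules were chosen with earlier results of these data known. The lists gave partners, antigen processing, COP9 signalosome, eIF3, TRiC and markers. Alternatives covered normalization, filter, SD model, fold, probe set and membership.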

Additional observations from a re-analysis of the deposited data

Results flagged for a closer look

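The direction in hypoxia differed between the fractions for PSMG4, which had a log2 difference of 0.27 in total RNA and one of -0.15 in ER-RNA. It also differed for PSMB11, with 0.099 and -0.32, although its values lay below the array median throughout and its total RNA value was near 0 after quantile normalization. PSMG4 in ER-RNA, at 6.67 and 6.52, was only a little above the array medians of 6.25 and 6.34. These PSMG4 values lay below the medians of the genes alone, 6.76 and 6.77. With 1 array per group the differences in direction were not tested, and neither gene was called.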

How the results depend on the processing

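No paired analysis was possible because each group is 1 array of pooled RNA. For the same reason no replicate could be left out. Genes called lower in total RNA numbered 16, but 10 with a filter at the 75% quantile, 3 with an SD from the scaled MAD (PSMA5, PSMB8 and PSME2), 27 by fold change alone and 9 with fold change over 2. In ER-RNA 18 were called, against 2 with an SD from the scaled MAD (PSMB9 and PSME2) and 35 by fold change alone. Under the other alternatives counts lay within 1.5 times these, with 0 called higher under any. PSMB8 lost its call in total RNA with the filter applied to both arrays of the pair, and PSMC2 in total RNA and PSMG1 in ER-RNA after quantile normalization or loess of the pair. Class medians kept their sign in all alternatives run. Counting PSMD5, PSMD9 and PSMD10 as assembly factors moved that median in total RNA from -0.61 to -0.31. In ER-RNA, quantile normalization of the pair moved the assembly median from -0.38 to -0.24 and PSMF1 from -0.22 to -0.058, and loess of the pair moved PSMF1 to -0.11. Quantile normalization of all 4 arrays lowered ER-RNA over total RNA from 1.30 to 0.71 at 21% oxygen and from 0.99 to 0.62 at 1% for all genes of the set, from 1.46 to 0.94 for the core at 21%, and from 0.56 to 0.35 for the cap at 1%. By the same setting, added after seeing the data for this count, 21 rather than 35 genes had a lower change in ER-RNA than in total RNA. Causes were not tested. The depth of signal limits PSMA8 and PSMB11, which stood below the array median.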
